A study of Mus musculus with 2 samples.

Results

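The trigeminal ganglion (TG) neurons described here are small peptidergic neurons that contain mRNA of Sstr2, the gene of somatostatin receptor 2. They were chosen by their counts of unique molecular identifiers (UMIs), each of which marks 1 captured mRNA molecule. A member had at least 5000 CPM of Calca (CPM being a gene's UMIs scaled to the total of the cell or class), under 300 CPM of Nefh, at most 2 UMIs of Trpm8, under 100 CPM of Mrgpra3 and at least 2 UMIs of Sstr2. There were 196 such cells among 1204 neurons, 10356 cells kept after filtering and 11378 cells in all. Neurons that passed the same gate but had 0 Sstr2 UMIs, 233 in number, are called Sstr2-negative below and serve for comparison. The study asked how TG neurons differ after orofacial inflammation, and it deposited 1 single-cell library per condition. Both libraries were made from right TGs of male C57BL/6 mice of 5 to 8 weeks. The CFA library came from mice 7 days after 20 μL of complete Freund's adjuvant (CFA, diluted in saline) in the right vibrissal pad. The control mice received saline according to the study and are named untreated in the labels, and the sources used here name no transgene or mutant allele. The study had 6 mice per group, and how many of them a library holds is not given in the sources used here. Since each condition has 1 library, no replicate spread exists against which to set a difference, and no test was made. All intervals below are 95% intervals for counting error only.

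Peptidergic nociceptors are unmyelinated or thinly myelinated sensory neurons that release neuropeptides such as CGRP (Calca) and substance P (Tac1) from their endings, and they report heat, chemical irritants and tissue damage. Somatostatin receptor 2 is an inhibitory receptor: it couples to Gi proteins, which lower cAMP, open potassium channels and close calcium channels. Somatostatin itself is made by a different set of sensory neurons, those that carry itch signals, and somatostatin analogues that act on this receptor are known to dampen nociceptor activity.

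The promoters of 3 genes are shown: that of Sstr2, because the members were chosen by it, and those of Dcdc2a and Bcl11a, because they were given as markers of the members and are not part of the rule. Each is the 250 bases before a RefSeq transcription start, on the plus strand of GRCm38.p6, at chr11:113619077-113619326 for Sstr2, chr13:25055754-25056003 for Dcdc2a and chr11:24080445-24080694 for Bcl11a. Capitals mark matches to TGACGT, the core of the cAMP response element, or to TGACCA, a motif bound by BCL11A, on either strand. 
Sstr2: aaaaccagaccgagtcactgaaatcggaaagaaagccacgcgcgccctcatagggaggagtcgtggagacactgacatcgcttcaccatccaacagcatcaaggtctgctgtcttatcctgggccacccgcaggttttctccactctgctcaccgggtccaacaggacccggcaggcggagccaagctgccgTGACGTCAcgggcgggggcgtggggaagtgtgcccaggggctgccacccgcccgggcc
Dcdc2a: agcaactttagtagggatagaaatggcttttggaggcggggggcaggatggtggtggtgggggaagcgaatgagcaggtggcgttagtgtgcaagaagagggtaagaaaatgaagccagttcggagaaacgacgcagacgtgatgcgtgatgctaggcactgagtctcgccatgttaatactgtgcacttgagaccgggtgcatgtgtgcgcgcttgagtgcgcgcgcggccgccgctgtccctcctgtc
Bcl11a: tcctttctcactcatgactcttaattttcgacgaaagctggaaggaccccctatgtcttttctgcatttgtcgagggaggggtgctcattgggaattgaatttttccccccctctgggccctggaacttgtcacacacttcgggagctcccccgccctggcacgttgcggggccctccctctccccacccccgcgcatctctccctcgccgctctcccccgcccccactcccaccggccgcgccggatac
The Sstr2 window holds TGACGTCA, in which TGACGT lies on both strands with the copies overlapping, and no TGACCA. Of 32851 RefSeq windows of the same length, 6.47% held TGACGT and 11.4% held TGACCA. In GENCODE mouse release 21, another annotation, the genes lie at chr11:113619342-113626028 (Sstr2), chr13:25056004-25210706 (Dcdc2a) and chr11:24078056-24174123 (Bcl11a) of GRCm38, all on the plus strand. The Bcl11a window thus lies inside the GENCODE interval of the gene, after its start. It is upstream of the RefSeq start used but not of the whole gene. Neither motif occurred in the Dcdc2a or the Bcl11a window. Trpc7 was also given as a marker outside the rule, and its window, which is not shown, held neither motif. This says only that these letters are not in the 250 bases of each window.

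Sstr2-positive neurons were a large fraction of the small peptidergic neurons in both libraries. In the control library, 125 of the 324 neurons of the gate were members, which is 38.6% (Clopper-Pearson interval 33.3% to 44.1%). In the CFA library, members were 71 of 175, or 40.6% (33.2% to 48.2%). The cells of a library are not replicates of its condition, so the shares are given side by side only. In a further setting, each neuron was thinned to 20000 UMIs before the gate and shallower neurons were left out. Members were then 81 of 280 in the control library, or 28.9% (23.7% to 34.6%), and 58 of 141 after CFA, or 41.1% (32.9% to 49.7%). The control share was thus lower than the unthinned one, while the CFA share changed little. Thinning and leaving out neurons changed together, and the part of each was not tested. The difference between the libraries was not tested either. Among all neurons, members made up 15.7% (13.3% to 18.4%) of the control and 17.4% (13.8% to 21.4%) of the CFA library. The Sstr2 counts were low in most cells, with 155 control and 78 CFA neurons of the gate at 0 and 44 and 26 at 1 UMI. Neurons with 1 UMI belong to neither class.

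**Figure D1:**
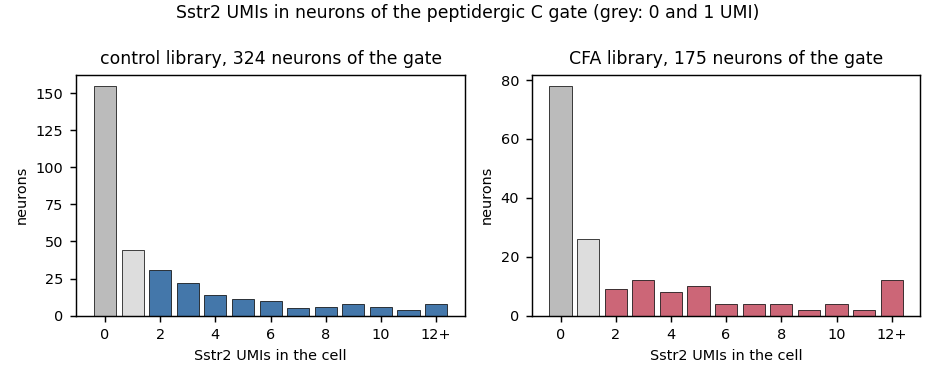
Number of neurons of the peptidergic C gate (y axis) by Sstr2 UMIs in the cell (x axis, 12 and more in 1 bar) in the control library (left, 324 neurons) and the CFA library (right, 175 neurons). Coloured bars are Sstr2-positive neurons, 125 and 71 in number, and grey bars are neurons with 0 or 1 UMI.

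Sstr2 transcripts were concentrated in the gate. Members were 125 of the 134 control neurons with at least 2 Sstr2 UMIs (93.3%, 87.6% to 96.9%) and 71 of 74 in the CFA library (95.9%, 88.6% to 99.2%). Of the 9 control neurons left outside, 7 had too much Nefh and 2 too little Calca. The non-peptidergic Mrgprd neurons had an Sstr2 UMI in 7 of 176 control cells (3.98%) and 2 of 64 CFA cells (3.13%). These low shares stood at higher depth than that of the members: the Mrgprd neurons had a median of 66501 UMIs in the control library and 62041 after CFA, against 35103 and 31547 in the members. Sstr2-negative neurons were close to the members in depth, at 37481 and 31564.5 UMIs per cell. Members had a median of 7033 genes and 2.22% mitochondrial UMIs in the control library, and 6770 genes and 2.45% in the CFA library. No member of one library had a barcode of a member of the other, and 27 barcodes were shared over all cells. A Scrublet doublet score above 0.25 was found in 1 control and 1 CFA member.

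The name peptidergic nociceptor was checked against genes that define it. Calca, used by the rule, stood at 11840 CPM in the control and 9292 CPM in the CFA members. Tac1, the substance P precursor, was counted in every member, at 6645 CPM in the control library and 5292 CPM after CFA. Adcyap1 (the peptide PACAP) was also found in every member, and Trpv1, the capsaicin and heat receptor, stood at 556 CPM in the control members and 476 CPM in the CFA members. Of the defining genes of other neurons, Mrgpra3, limited by the rule, had no UMI in either library, and Sst, the gene of the ligand, had 7 UMIs over all 125 control and 2 UMIs over all 71 CFA members. The summed level of the Sst and Nppb itch neuron markers was 2.89 CPM in the control and 1.26 CPM in the CFA members, with Nppb at 0 in the CFA library. Markers of Mrgprd neurons came to a total of 30.1 CPM in control and 8.80 CPM in CFA members, mostly Lpar3, against 64.7 and 46.4 CPM in Sstr2-negative neurons. Markers of C low-threshold mechanoreceptors came to 25.2 and 9.64 CPM in members, with Th the most abundant at 15.5 CPM in the control library, against 26 and 19.2 CPM in Sstr2-negative neurons. Markers of A fibres had a total of 218 CPM in control members and of 220 CPM in CFA members, about the level in the Sstr2-negative neurons (244 and 242 CPM), and Nefh, limited by the rule, was the most abundant of them.

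Dcdc2a and Bcl11a, given with the rule but not used by it, were both higher in the members, and most Dcdc2a UMIs of neurons were in them. Dcdc2a encodes a doublecortin-domain protein that binds microtubules. It stood at 85.6 CPM in control members against 3.17 CPM in control Sstr2-negative neurons, and at 131 against 2.58 CPM in the CFA library. The log2 ratios were 4.75 (4.09 to 5.50) and 5.67 (4.61 to 6.99). They were smaller, at 3.61 and 3.99, with neurons thinned to 20000 UMIs before the gate, and at 3.78 and 3.97 against neurons with 0 or 1 Sstr2 UMI. Members supplied 75.7% of all Dcdc2a UMIs of control neurons and 80.7% of those of CFA neurons, while they held 12.6% and 14.2% of all neuronal UMIs. Bcl11a, a zinc-finger transcription factor of sensory and other neurons, stood at 74.4 against 22.7 CPM in the control and 71.6 against 34.3 CPM in the CFA library. Its log2 ratios, 1.71 (1.43 to 2.01) and 1.06 (0.69 to 1.44), were smaller than those of Dcdc2a. Trpc7, a calcium-permeable cation channel, showed 38.6 against 8.18 CPM and 28.1 against 11.8 CPM, with log2 ratios of 2.24 (1.78 to 2.72) and 1.25 (0.62 to 1.91). Trpc7 was below the minimum of 100 UMIs over both classes in the CFA library and so is not among the genes counted below.

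Cell by cell, Sstr2 ranged from 21.9 to 489 CPM with a median of 125 in control members, and from 42.0 to 593 CPM with a median of 169 in CFA members. Dcdc2a had a median of 41.7 CPM in control and 87.3 CPM in CFA members and was counted in 77 of 125 and 54 of 71 cells. Bcl11a was counted in 94 and 63 cells and Trpc7 in 83 and 37, so many but not all members had a UMI of each gene. 

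Cells on either side of the threshold of 2 Sstr2 UMIs also differed in Dcdc2a and Htr3a, which are among the genes furthest apart between the classes. Just inside it, the 31 control cells with exactly 2 UMIs had 68.9 CPM of Dcdc2a and 6.03 CPM of Htr3a, a serotonin-gated channel. Just outside it, the 44 control cells with 1 UMI had 16.8 CPM of Dcdc2a and 46.3 CPM of Htr3a. In the CFA library, 9 cells with 2 UMIs had 65.6 CPM of Dcdc2a and no Htr3a, against 26.2 and 14.8 CPM in 26 cells with 1 UMI. Cells with 1 UMI thus lay between both classes for these genes. Not every gene did so. Bcl11a in the CFA library was 22.7 CPM in cells with 1 UMI, below the 34.3 CPM of cells with 0. Chrna3, a nicotinic receptor subunit, was 76.9 CPM in control cells with 1 UMI, above cells with 0 (38.9 CPM) and with 2 (27.5 CPM). Single cells varied within the members: Dcdc2a and Pde1a together reached 2 UMIs in 88 of 125 control (70.4%) and 53 of 71 CFA members (74.6%). The same held for 7 of 155 control and 1 of 78 CFA Sstr2-negative neurons. Both genes were at 0 in 32 control and 12 CFA members.

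Across the transcriptome, few genes were past 2-fold between the classes. The median log2 ratio of Sstr2-positive over Sstr2-negative neurons was 0.02 in each library over 7089 genes with at least 100 UMIs in both classes together. Of these, 65 genes (0.917%) were at least 2-fold higher and 71 genes (1.00%) at least 2-fold lower in the members of both libraries. With each neuron thinned to 20000 UMIs before the gate, 31 genes were higher, 25 of them among the 65. In that setting 50 were lower, 34 of them among the 71. With Calca at 8000 CPM or more, 32 were higher and 37 lower. Since Sstr2 itself sorted the cells, these counts describe the members and were not tested. In all, 169 genes were past 2-fold in the control library and 254 after CFA, of which 136 were past it in both, 33 in the control library only and 118 in the CFA library only. Of the 169 genes, 169 had the same sign in the CFA library, and of the 254 genes, 250 had the same sign in the control library.

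**Figure D2:**
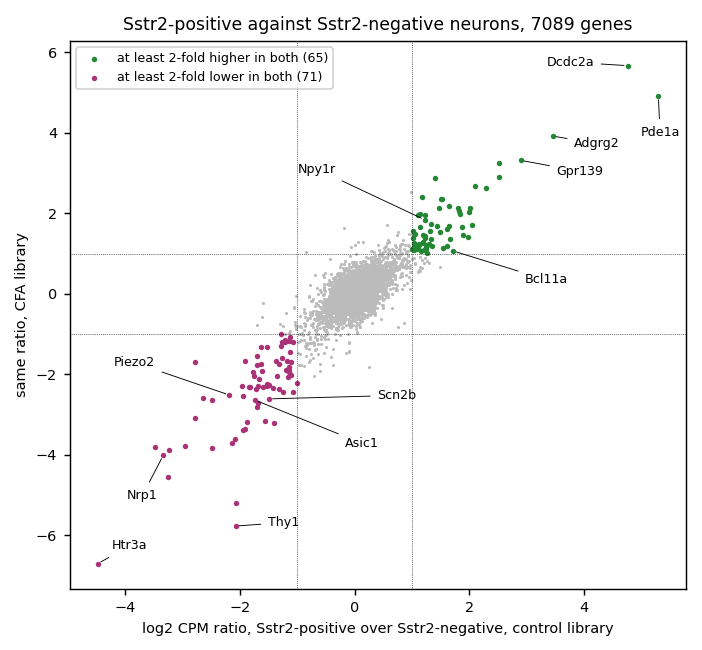
Log2 CPM ratio of Sstr2-positive over Sstr2-negative neurons in the control library (x axis) and the CFA library (y axis), 1 point per gene for 7089 genes, with dotted lines at 2-fold. The 65 green genes lie past 2-fold above and the 71 purple genes past 2-fold below in both libraries, with Dcdc2a and Pde1a at one end and Htr3a at the other.

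The gene with the highest ratio, ranked by the library nearer to 0, was Pde1a. Pde1a, a phosphodiesterase switched on by calcium and calmodulin that degrades cyclic nucleotides, stood at 58.8 CPM in control members against 1.5 CPM in control Sstr2-negative neurons. In the CFA library it was 55.3 against 1.84 CPM, and the log2 ratios were 5.29 (4.35 to 6.43) and 4.91 (3.65 to 6.55). Pde4c, a phosphodiesterase specific for cAMP, had ratios of 1.87 and 1.65. Other genes among the 15 highest had various roles. Pcp4, which binds calmodulin, had log2 ratios of 2.51 and 2.91, and Caln1, a calcium-binding protein, 2.10 and 2.68. Car8, a carbonic anhydrase-related protein that binds the IP3 receptor, was at 198 against 55.2 CPM in the control and 243 against 61.9 CPM in the CFA library. Plxdc1 (2.29 and 2.62), Ust (2.02 and 2.14), Marcksl1 (2.00 and 2.02) and Slc6a7 (2.05 and 1.71) were also in this group.

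Adgrg2, Gpr139 and Gpr26 followed Pde1a and Dcdc2a in the ranking. Adgrg2, an adhesion receptor, was at 32.8 against 3.00 CPM in the control and 39.0 against 2.58 CPM in the CFA library. Gpr139, an orphan receptor, was at 32.2 against 4.34 CPM and 44.0 against 4.42 CPM. Gpr26, also an orphan receptor, was at 67.0 against 11.7 CPM and 95.1 against 9.95 CPM. Their ranges across the other neurons differed. Trpm8 neurons, which respond to cold, had more Gpr26 than the members, at 406 CPM in the control library and 326 CPM after CFA. Adgrg2 was at 122 and 99.3 CPM in the neurons outside all named classes. High Gpr26 or Adgrg2 was therefore not particular to Sstr2-positive neurons.

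Among the inhibitory receptors, 1 of 12 genes with enough counts was at least 2-fold higher in both libraries and none was lower, against the backgrounds of 0.917% and 1.00% given above. That gene was Npy1r, the Y1 receptor of neuropeptide Y, which couples to Gi as Sstr2 does. It stood at 212 against 90.9 CPM in the control and 321 against 89.5 CPM in the CFA library, with log2 ratios of 1.22 (1.07 to 1.37) and 1.84 (1.63 to 2.05). Npy2r, with too few UMIs to be counted, showed 22.1 against 9.84 CPM and 20.5 against 12.2 CPM. Oprm1, the µ-opioid receptor, was sparse, at 8.86 CPM in control and 11.3 CPM in CFA members, and Oprk1, the κ-opioid receptor, had 4.54 CPM in control members against 11.7 CPM in the Sstr2-negative neurons. The other somatostatin receptors were rare: Sstr1 had 4.12 CPM in control and 1.68 CPM in CFA members. None of 12 Gi signalling partners passed 2-fold in both libraries. Rgs4, which speeds up the switching off of G proteins, was lower in members in both libraries, at 493 against 847 CPM and 363 against 797 CPM, with log2 ratios of -0.78 and -1.13.

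None of 15 neuropeptides and granule proteins passed 2-fold in both libraries. Gal, the galanin precursor, was 703 against 322 CPM in the control (log2 ratio 1.13, 1.05 to 1.21) and 518 against 344 CPM in the CFA library (0.59, 0.47 to 0.71). Bdnf, a neurotrophin, was 465 against 271 CPM and 482 against 221 CPM. Cartpt, the precursor of the CART peptide, had the opposite direction, at 327 against 507 CPM and 198 against 560 CPM. Tac1 had log2 ratios of -0.12 and -0.11. Calca, whose level both classes had to reach under the rule, had -0.05 and -0.16.

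Ion channel genes differed between the classes in both directions. Of 24 potassium channel genes with enough counts, 3 were at least 2-fold higher and none was lower, beside 0.917% and 1.00% of all genes. They were Kcnq5, an M-current channel (log2 ratios 1.61 and 1.19), Kcnk3, an acid-sensitive leak channel (1.27 and 1.01), and Kcnc4, a fast voltage-gated channel (1.08 and 1.12). Kcns2, a silent subunit that modifies other potassium channels, was not on this list but was among the 15 highest genes, and stood at 38.1 against 10.8 CPM in the control and 39.8 against 9.58 CPM in the CFA library. The mechanically gated channel Piezo2, which serves light touch, was lower in members, at 10.5 against 47.7 CPM and 14.2 against 81.4 CPM. The acid-sensing channel Asic1 was 27.0 against 89.9 CPM and 13.8 against 86.2 CPM. Together, Piezo2 and Asic1 were the genes past 2-fold of 6 acid and mechanically gated channels, beside 1.00% of all genes lower. Of 8 sodium channel genes, the auxiliary subunit Scn2b alone passed 2-fold, beside the same 1.00%, at 53.8 against 151 CPM and 25.6 against 156 CPM. The sodium channels of nociceptor firing differed less: Scn10a (NaV1.8) had log2 ratios of 0.01 and 0.22, and Scn11a (NaV1.9) 0.46 and 0.48. No TRP channel of 7 with enough counts passed 2-fold, and Trpv1 had ratios of -0.14 and -0.12.

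The serotonin-gated channel Htr3a was the gene lowest in the members. It stood at 4.95 CPM in control members against 110 CPM in control Sstr2-negative neurons and at 1.26 against 131 CPM in the CFA library, with log2 ratios of -4.47 (-5.12 to -3.89) and -6.71 (-8.99 to -5.15). Its partner subunit Htr3b, with few UMIs, had 0.21 against 13.0 CPM in the control library, and no UMI against 7.0 CPM in the CFA library. At least 2 Htr3a UMIs were found in 2 of 125 control and 1 of 71 CFA members, against 59 of 155 and 31 of 78 Sstr2-negative neurons. In Mrgprd neurons, which were deeper than the members, the count was 2 of 176 and 0 of 64. The thrombin receptor F2r followed the same direction below the minimum of counts, at 0.41 against 22.5 CPM and 1.68 against 13.6 CPM. Htr3a was 1 of 2 genes past 2-fold, both lower, among 13 receptors of excitatory and inflammatory mediators, beside 1.00% of all genes lower and 0.917% higher. Lpar3, a lysophosphatidic acid receptor, was the other, at 17.3 against 40.9 CPM and 6.28 against 34.3 CPM. Ptger4, the EP4 receptor of prostaglandin E2, was higher in members, at 63.7 against 26 CPM and 54.9 against 32.0 CPM, but passed 2-fold only in the control library.

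Of 15 adhesion and guidance genes, 3 were at least 2-fold lower in the members and none was higher, beside 1.00% and 0.917% of all genes, and the median log2 ratios were -0.35 and -0.43. Nrp1, a semaphorin and VEGF co-receptor, was 4.12 against 41.5 CPM in the control and 2.93 against 47.5 CPM in the CFA library. Nrp2, its relative, was 10.5 against 33.5 CPM and 5.87 against 38.3 CPM, and the protocadherin Pcdh9 was 11.1 against 43.0 CPM and 5.03 against 52.7 CPM. The membrane glycoprotein Thy1 was 69.3 against 291 CPM in the control and 6.28 against 343 CPM in the CFA library. Control members thus had more Thy1 than CFA members, and 5 of the 125 control cells held 69.3% of their Thy1 UMIs. Other genes among the 15 lowest were Vmn1r85, a vomeronasal-type receptor (log2 ratios -3.24 and -3.89), the calcium-binding S100b (log2 ratios -2.77 and -3.09), the membrane protein Tmem233 (-2.64 and -2.60), the secretory granule protein Resp18 (-2.14 and -3.70) and Prokr2, a prokineticin receptor (-2.07 and -5.20).

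Of 23 sensory neuron transcription factors with enough counts, Bcl11a alone passed 2-fold, beside 0.917% of all genes higher and 1.00% lower. Runx1, which directs the fate of small sensory neurons, was 161 against 92.8 CPM in the control library and 259 against 128 CPM after CFA, with log2 ratios of 0.79 and 1.02. Lmo4, a LIM-domain cofactor with too few UMIs to be counted, was lower at 7.22 against 41.9 CPM and 0.84 against 29.5 CPM, and Onecut2 at 4.12 against 18.5 CPM and 2.09 against 24.3 CPM. Immediate early genes, which follow cell activity and tissue dissociation, were measured in 14 cases and none passed 2-fold. Jun was nonetheless above the Sstr2-negative level in both libraries, at 1152 against 771 CPM and 1275 against 847 CPM. No gene passed 2-fold in both libraries among 14 calcium and HCN channels, 6 intermediate filaments, 12 interferon-response genes, 13 nerve injury genes and 9 mitochondrially encoded genes. Of 11 glutamate and GABA receptors and transporters, Gria2, an AMPA receptor subunit, was lower, with log2 ratios of -1.12 and -1.08, beside 1.00% of all genes. A further list held 7 of the genes that the study named for differences after CFA in its peptidergic class PEP1. Others that it named for PEP1, such as the hub genes Il6 and Nos1, were not on it. They come from these same libraries and are therefore no independent evidence. Between the classes, Kcnk3 alone of the 7 was past 2-fold, and it was higher, beside the same 0.917%. Of 11 growth factor receptors, 1 was higher, beside 0.917% of all genes. It was the receptor phosphatase Ptprt, at 241 against 69.6 CPM and 334 against 75.5 CPM.

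Among the 8 neuron classes, the members had the highest Dcdc2a, Pde1a and Bcl11a levels in both libraries. Pde1a was at 11.7 CPM in control and 4.5 CPM in CFA neurons with high Calca and Nefh, at 0.38 and 7.85 CPM in Trpm8 neurons, and at or below 0.28 CPM in Mrgprd and Mrgpra3 neurons. Members supplied 79.2% (74.6% to 83.2%) and 80.0% (73.1% to 85.8%) of all neuronal Pde1a UMIs. Other genes were shared with distant classes. Ptprt was at 273 CPM in control Mrgprd neurons, and Npy1r at 111 CPM in control Trpm8 neurons. Htr3a was lower than in the control members in 1 neuron class of the control library, the Mrgprd neurons, at 1.45 CPM, and reached 303 CPM in neurons with high Calca and Nefh.

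**Figure D3:**
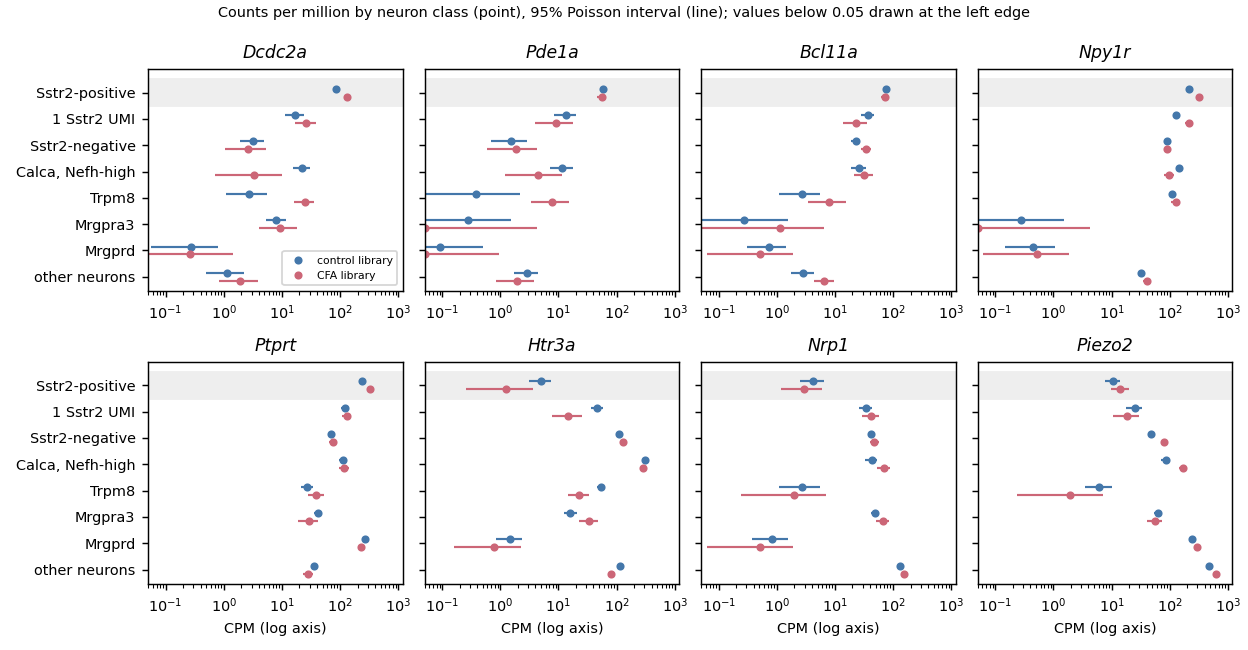
CPM (x axis, log scale) of 8 genes in 8 neuron classes (y axis) of the control library (blue) and the CFA library (red), with 95% Poisson intervals as lines and values below 0.05 drawn at the left edge. The shaded top row is the Sstr2-positive class, in which Dcdc2a, Pde1a and Bcl11a have their highest levels in both libraries and Htr3a and Nrp1 are at 4.95 CPM or less.

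The members were not uniform: a few contained Chrna3, the nicotinic receptor α3 subunit, and differed in other genes. This division was chosen after the values were seen. At least 2 Chrna3 UMIs were found in 15 of 125 control members (12%, 6.87% to 19.0%) and in 3 of 71 CFA members (4.23%, 0.88% to 11.9%), and in no Mrgprd neuron. In the control library the 15 cells had 203 CPM of Chrnb4, the β4 subunit that pairs with α3, against 6.10 CPM in the other 110 members. They also had more Trpa1, the irritant receptor (1688 against 310 CPM), more Nos1, neuronal nitric oxide synthase (369 against 39.1 CPM), and more Asic1 (109 against 7.88 CPM). They had less of the genes that mark the class as a whole: Dcdc2a was 2.19 against 105 CPM, Bcl11a 10.9 against 89.2 CPM, Ptprt 44.8 against 287 CPM and Npy1r 75.4 against 243 CPM. Bdnf (126 against 544 CPM) and the sodium channel Scn10a (82.0 against 223 CPM) were lower as well. The 3 CFA cells had the same directions, with 195 CPM of Chrnb4 against 5.76 CPM, 881 CPM of Trpa1 against 260 CPM and no Dcdc2a UMI against 139 CPM. Sstr2 itself was 92.9 against 149.9 CPM in the control and 93.5 against 225 CPM in the CFA library. Dcdc2a and Pde1a were both at 0 in 11 of the 15 control cells and all 3 CFA cells. The cells with Chrna3 were also deeper, with a median of 59423 UMIs in the control library against 34040.5 in the other members, and the part of depth in reaching 2 UMIs of Sstr2 and Chrna3 was not tested. Chrna3 was not limited to the members, since 26 of 155 control and 11 of 78 CFA Sstr2-negative neurons had at least 2 UMIs.

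**Figure D4:**
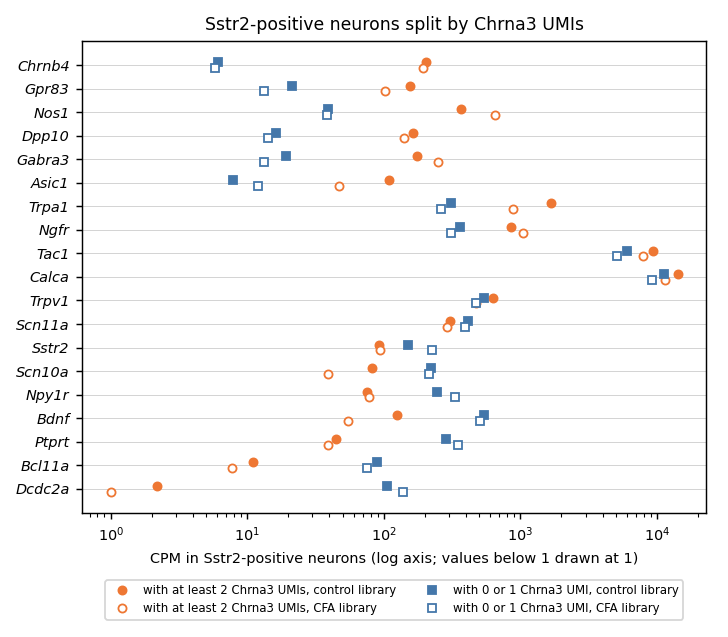
CPM (x axis, log scale, values below 1 drawn at 1) of the named genes (y axis) in Sstr2-positive neurons with at least 2 Chrna3 UMIs (orange circles, 15 control and 3 CFA cells) and with 0 or 1 (blue squares, 110 control and 68 CFA cells). Filled symbols are the control and open symbols the CFA library. Chrnb4, Nos1 and Trpa1 are higher and Bcl11a and Dcdc2a lower in the cells with Chrna3 in both libraries.

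The members of the CFA library, taken 7 days after the injection, were compared with those of the control library. With 1 library per condition, the treatment cannot be told apart from any other difference between the libraries. Of 8188 genes with at least 100 UMIs over both libraries, 227 (2.77%) were at least 1.5-fold higher and 312 (3.81%) at least 1.5-fold lower in the CFA library, with a median log2 ratio of 0.00. With each neuron thinned to 20000 UMIs before the gate, there were 81 control and 58 CFA members. At the same minimum of UMIs, which fewer genes then reach, 159 genes were higher, 66 of them among the 227. Lower were 151 genes, 52 of them among the 312. The part of depth in these smaller counts was not tested. In Sstr2-negative neurons of the same libraries, 182 of 8681 genes (2.10%) were higher and 343 (3.95%) lower. Both classes share their libraries, so their values are given side by side only. Among genes with at least 200 UMIs over both libraries, the highest ratio in members was that of Lrrc17, a secreted leucine-rich protein, at 41.6 CPM in the control library and 112 CPM after CFA. Its log2 ratio was 1.43 (1.16 to 1.70) in the members and 1.51 (1.24 to 1.77) in Sstr2-negative neurons. Bc1, a non-coding RNA of neurons and dendrites, had 0.93 and 0.92, so these genes were higher in the CFA library in both classes. Other genes were higher in the members alone by this threshold, although the difference between the classes was not tested. The cell adhesion molecule Nectin3 was 73.2 and 169 CPM (1.21 in members, 0.56 in Sstr2-negative neurons). Nptx1, a secreted pentraxin that gathers glutamate receptors, was 30.5 and 67.5 CPM (1.14, and -0.40 in Sstr2-negative neurons).

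Of the 5 genes given as markers of the members, Sstr2 and Dcdc2a had a positive log2 ratio of the CFA over the control library, and Calca, Bcl11a and Trpc7 a negative one, with a median of -0.05. Sstr2 was 139 CPM in control members, with an interval of 129 to 150, and 218 CPM after CFA, with one of 200 to 237, a log2 ratio of 0.65 (0.48 to 0.81). Since members were chosen by Sstr2, that ratio is a description of the chosen cells. Dcdc2a followed, at 85.6 and 131 CPM (0.62, 0.40 to 0.83), and Npy1r, at 212 and 321 CPM (0.60, 0.46 to 0.73), with -0.02 for Npy1r in Sstr2-negative neurons. Both were under 1.5-fold without the members that had at least 2 Chrna3 UMIs, where Dcdc2a was 105 and 139 CPM with a ratio of 0.40 (0.18 to 0.62) and Npy1r 243 and 334 CPM with a ratio of 0.46 (0.32 to 0.60). Pde1a (58.8 and 55.3 CPM) and Bcl11a (74.4 and 71.6 CPM) had ratios of -0.09 and -0.05, and Trpc7 was at 38.6 and 28.1 CPM with a ratio of -0.46 (-0.88 to -0.05). Of 12 inhibitory receptors, Npy1r alone was past 1.5-fold, and of 13 Gi partners, Gnaz alone, a Gi-family α subunit at 127 and 198 CPM, both higher, beside 2.77% of all genes. Sstr2, on which the cells were chosen, is not counted here.

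Peptides and most channels were below 1.5-fold in the members. Calca had a log2 ratio of -0.35 (-0.37 to -0.33) and Tac1 of -0.33 (-0.36 to -0.30), beside -0.24 and -0.34 in Sstr2-negative neurons. The ratio of Calca describes chosen cells, since the rule removed neurons under 5000 CPM of it from both libraries. With 8000 CPM in its place, 116 of the 125 control and 45 of the 71 CFA members remained. Of 16 neuropeptides and granule proteins, Cartpt alone passed 1.5-fold, beside 3.81% of all genes lower, at 327 CPM in the control library and 198 CPM after CFA. Trpa1 was 570 and 294 CPM (-0.96, -1.08 to -0.84) and Asic1 27.0 and 13.8 CPM (-0.97, -1.56 to -0.41). These ratios rested on few cells: without the members that had at least 2 Chrna3 UMIs, Trpa1 had a ratio of -0.25. Chrnb4 then moved from -1.44 to -0.08, and Asic1 turned to 0.60 (-0.20 to 1.39), an interval that spans both signs. Scn2b was lower as well, with a ratio of -1.07 (0.05 in Sstr2-negative neurons). The sodium channels Scn10a (0.07) and Scn11a (-0.01) and Trpv1 (-0.22) differed little. Of 29 potassium channel genes, Kcnk3 was higher, at 181 and 277 CPM, and Dpp10, an auxiliary subunit, was lower, at 44.1 and 20.9 CPM, beside 2.77% and 3.81% of all genes. Without the members that had Chrna3, both were under 1.5-fold, with Kcnk3 at 0.50 and Dpp10 at -0.20 (16.3 and 14.2 CPM). The 7 listed genes that the study named for PEP1 all had a ratio above 0, with a median of 0.51. The study named them for differences between these same libraries, so their direction is no independent evidence. Il6, which it also named for PEP1 but which is not among the 7, had a ratio of -2.07. Of the 7, Bc1 and Kcnk3 were past 1.5-fold higher, beside 2.77% of all genes. In Sstr2-negative neurons, 3 of the 7 were higher, beside 2.10%. Of 24 transcription factors, 5 were higher (Runx1, Ebf3, Meis2, Zfhx3 and Nfib) and 1 lower (Rora), beside the same shares of 2.77% and 3.81% over all genes. In Sstr2-negative neurons, 4 of 30 were higher and none lower, beside 2.10% and 3.95%. Without the members that had Chrna3, Ebf3 (0.54) and Meis2 (0.58) were just under 1.5-fold. Runx1 stood at 161 and 259 CPM with a log2 ratio of 0.68 (0.53 to 0.84), and in Sstr2-negative neurons its ratio was 0.46.

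Interferon-response genes were the gene list with the most genes past 1.5-fold lower in the CFA library. In Sstr2-positive neurons, 9 of 20 with enough counts were at least 1.5-fold lower and 1, Ifit2, was higher, beside 3.81% and 2.77% of all genes, with a median log2 ratio of -0.51. In Sstr2-negative neurons, 18 of 24 were lower and none higher, beside 3.95% and 2.10% of all genes, with a median of -0.93. Iigp1, an interferon-induced GTPase, was 56.7 CPM in the control and 0.84 CPM in the CFA members, where it rested on 2 UMIs. Gbp2, a guanylate-binding protein, was 29.5 and 5.87 CPM, and Ifit1, an antiviral RNA-binding protein, 127 and 71.2 CPM. The control counts were uneven among cells, with 5 of 125 members holding 69.1% of the Iigp1 UMIs and 30 members having any. Cells of different mice cannot be told apart within a library.

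Il6 and the fibrinogen chain Fgg, both linked to inflammation and injury, were lower in CFA members too. Il6 was 68.4 CPM in the control and 16.3 CPM in the CFA library (log2 ratio -2.07, -2.58 to -1.59), and was found in 70 of 125 and 21 of 71 members. In Sstr2-negative neurons the ratio was -0.50 (-0.88 to -0.12). Fgg was 64.1 and 12.2 CPM, with -2.40 in members and -1.06 in Sstr2-negative neurons. The injury marker Atf3 was nearly level, at 255 and 253 CPM, and none of 14 immediate early genes passed 1.5-fold, Fos being 698 and 772 CPM. Thy1 had a ratio of -3.46 in members and 0.24 in Sstr2-negative neurons, and Chrna3, at 46.2 and 9.64 CPM, had -2.26 and -0.20.

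**Figure D5:**
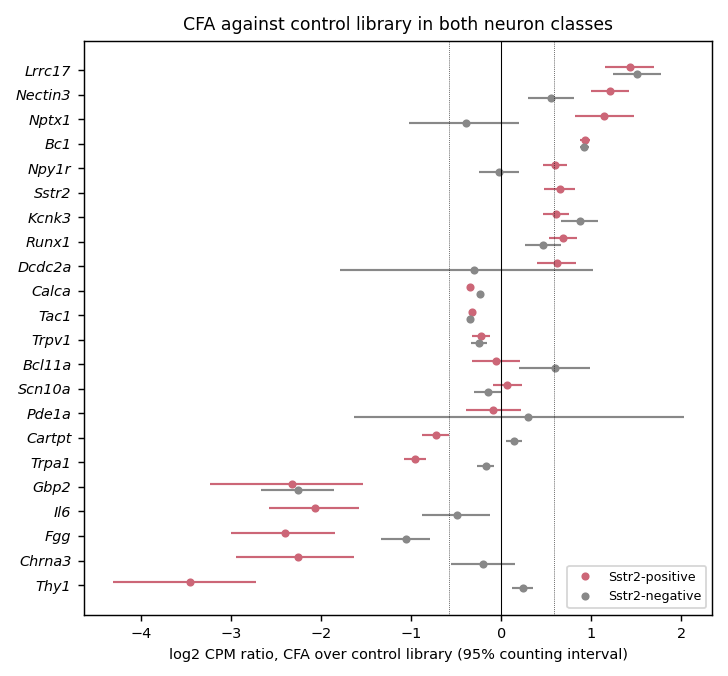
Log2 CPM ratio of the CFA over the control library (x axis) for 22 genes (y axis) in Sstr2-positive neurons (red) and Sstr2-negative neurons (grey), with 95% counting intervals as lines and dotted lines at 1.5-fold. Lrrc17 and Bc1 are alike in both classes, and Thy1 (-3.46 and 0.24) and Chrna3 (-2.26 and -0.20) are lower in Sstr2-positive neurons, where 5 control cells hold 69.3% and 75% of their UMIs.

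RNA of other cell types was present in the members and differed between the libraries. Markers of myelinating Schwann cells came to 884 CPM in total in control members and to 651 CPM in CFA members, with all 5 detected and Pmp22, which neurons may also contain, the most abundant. Satellite glia markers summed to 443 and 329 CPM, mostly Glul (302 and 238 CPM), and fibroblast markers to 148 and 75.4 CPM. Immune markers summed to 6.39 and 0.84 CPM, with 3 of 4 immune genes at 0 in the CFA library. In Sstr2-negative neurons, the myelinating Schwann cell sum was also lower in the CFA library, at 905 CPM in the control and 631 CPM after CFA. The satellite glia sum there was 443 and 343 CPM. Fibroblast markers in Sstr2-negative neurons went the other way, at 158 CPM in the control and 193 CPM in the CFA library. Oligodendrocyte-like markers were higher in CFA members, at 27.4 and 38.1 CPM, with Mobp past 1.5-fold (log2 ratio 0.59). Haemoglobin genes came to 14.6 CPM in control members and to 98.5 CPM in CFA members, and 1 CFA cell held 49.0% of the Hbb-bs UMIs. The mitochondrial transcript mt-Co1 was 1710.5 and 2891 CPM, and mt-Nd6 75.7 and 30.2 CPM, with ratios of 0.76 and -1.33 in members and 0.97 and -1.29 in Sstr2-negative neurons. The part of these RNAs in the differences between the libraries was not tested.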

How the data were processed

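Raw UMI counts for each gene in each cell were deposited by the authors for 1 BD Rhapsody library per condition, on GRCm38 with fastp named in the submitters' processing notes. The aligner, the pipeline version and the annotation are not given in the sources used here. The control file held 7298 cells and 48916096 UMIs, the CFA file 4080 cells and 22096268 UMIs. Cells with at least 150 genes and at most 25% mitochondrial UMIs were kept (6695 and 3661). Neurons had at least 5000 UMIs and at least 10 UMIs of Tubb3, Snap25 and Stmn2 together (795 and 409). Doublets were kept and scored with Scrublet (scanpy 1.11.5).

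Counts were summed per class and library in Python 3.11.15 (numpy 2.4.6, scipy 1.17.1, pandas 2.3.3), scaled to CPM with an exact Poisson interval. The Clopper-Pearson method served for shares, and an exact binomial interval conditional on the summed count for ratios. Where a class had no UMI, 3 counts bounded the ratio. The procedures were tested on simulated counts with Poisson error only. Variation between cells was not simulated, so that test does not cover counts held by few cells. Named genes are the markers, the members of gene lists by function, the 15 highest and 15 lowest ratios between the classes and the 12 highest and 12 lowest between the libraries (at least 200 UMIs). Gene models known only by a number may be counted without being named. Others are stated as chosen after the values were seen. Members, lists and rules were chosen with earlier results of these data known. Promoters came from RefSeq (24 of 34 genes matched). A few genes of the lists are not reported here.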

Additional observations from a re-analysis of the deposited data

How the results depend on the processing

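Of 12 settings tried beside the one reported, the stricter cell filter, no mitochondrial limit, removal of cells with Scrublet scores above 0.25, totals without mitochondrial genes, equal weights for cells and centred ratios left every count of genes within 1.5 times, and every share and marker ratio within its interval. With at least 50 UMIs per gene, 103 genes were higher and 126 lower in members, and 385 higher and 588 lower in the CFA library, since more genes were counted. With at least 300 UMIs these were 16, 24, 74 and 80. With Calca at 8000 CPM, 32 genes were higher and 37 lower in members. With at least 4 Sstr2 UMIs, members were 22.2% of the control and 28.6% of the CFA gate. Thinning neurons to 20000 UMIs gave shares of 28.9% in the control and 41.1% in the CFA gate, and Dcdc2a ratios of 3.61 and 3.99. In members it gave 31 higher and 50 lower genes, 34 of the latter shared with the 71. In the CFA library, 159 genes were then higher (66 shared with the 227) and 151 lower (52 shared with the 312). With 0 or 1 Sstr2 UMI in the contrast the Dcdc2a ratios were 3.78 and 3.97. Leaving out members with at least 2 Chrna3 UMIs, chosen after seeing the data, turned Asic1 to 0.60 (-0.20 to 1.39) in CFA over control. It also took Npy1r, Dcdc2a, Kcnk3, Ebf3, Meis2, Trpa1, Chrnb4 and Dpp10, among others, under 1.5-fold. No other ratio of a named gene past its fold changed sign under any of these 13 changes. Some ratios of named genes beyond the markers moved: 12 with equal weights for cells and 3 with totals without mitochondrial genes. Those that moved were 37 with thinning, 23 with at least 4 Sstr2 UMIs and 20 with Calca at 8000 CPM. They were 12 with 0 or 1 Sstr2 UMI in the contrast and 26 without the members that had Chrna3. No paired analysis was possible because each group has 1 library. Genes under 100 UMIs were not counted, and the depth allows no statement on those absent.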
